A study of Mus musculus with 5 samples.

Results

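The genes described here encode parts of the radial spokes and of the central pair of the sperm tail: Rsph1, Rsph3a, Rsph3b, Rsph4a, Rsph6a, Rsph9, Spag6, Spag16, Spag17 and Hydin. They were chosen by name, and all 10 were found among the 56324 rows of the deposited gene table. Spag6 among them means the row of that name, a locus on chromosome 16 that GENCODE vM21 and RefSeq name Spag6l. The study sequenced polyadenylated RNA of male germ cells from C57Bl/6 mice aged 12 weeks, with no other genotype or treatment named in the labels. There were 2 samples of spermatocytes, the cells in meiosis, and 3 of spermatids, the haploid cells that follow and build the tail. Both fractions were separated by sedimentation at unit gravity (Sta-put), which sorts cells mainly by size. Nothing in the labels ties the samples to separate animals. A limma p-value here weighs the difference between the groups against the spread between samples of a group. That spread may be technical only.

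The motile tail is built around an axoneme, a ring of doublet microtubules that surrounds a central pair of single microtubules. Radial spokes stand on the doublets and reach inward to the projections of the central pair, and this contact shapes the beat by acting on the dynein motors. The axoneme starts to grow in the round spermatid, and inherited loss of spoke head or central pair proteins gives immotile or stiffly beating cilia and sperm.

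Reads recovered from the deposited values summed to 52784231 to 84361908 per library over the gene rows. In all, 28370 genes with a mean normalised read count of at least 10 were tested. Of 10 spermatocyte markers 6 were lower and 2 higher in spermatids (limma, adjusted p under 0.05 throughout), and their summed level was 171986 to 189572 in spermatocytes and 40409 to 51738 in spermatids. All 9 round spermatid markers measured were higher in spermatids, with sums of 13717 to 16184 against 343449 to 389241. Sertoli cell markers were seen in the spermatocyte samples: all 12 were lower in spermatids, and their sum was 55198 and 72572 in spermatocytes against 1335 to 1990.1 in spermatids. All 6 Leydig cell markers were lower too (sums of 2355 to 2882 against 107 to 299), while 7 of 12 myoid, endothelial, macrophage and blood markers were higher and 1 lower (801 to 941 against 2636 to 3460 in sum). Of 10 spermatogonia markers 5 were higher and 2 lower, with sums of 5311 to 5431 against 2831 to 3394. Spermatid replicate 1 stood above the other spermatid samples in the 10 condensing spermatid markers by a median of 1.28 on the log2 scale, against 0.10 for the 10 spoke and central pair genes. Of 9 markers of multiciliated and duct epithelium 3 were higher, 1 was lower, 2 did not pass and 3 were too low to test, with sums of 2402 to 2507 in spermatocytes and 3311 to 3840.3 in spermatids. The 3 that were higher were Epcam, Krt18 and Lrp2, and the 3 too low to test were Mcidas, with reads in every library, Scgb1a1, at 0 in all libraries but spermatid replicate 2, and Pax8, at 0 in all but spermatocyte replicate 1. The part of these other cell types in the results was not tested.

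All 10 genes had reads in every library, and they did not move as a block. Of the 10, 7 changed, against 77.1% of all genes tested. Rsph9, Spag17 and Hydin were higher in spermatids, 3 of 10 beside 40.6% of all genes tested. Rsph1, Rsph3a, Rsph3b and the Spag6 row (Spag6l) were lower, 4 of 10 beside 36.5%. The gene that these annotations call Spag6 is not among the 10. It was higher in spermatids (log2 fold change 6.26, limma adjusted p = 3.7e-07). Rsph4a, Rsph6a and Spag16 did not pass the test. In 8 of the 10 the spermatid and spermatocyte values were fully separate, beside 85.8% of all genes tested, so the share that changed and the share that separated are both near the background. The median log2 fold change was -0.10 for the 10 genes and 0.07 for all genes tested. In bulk samples, fewer cells of a type and less RNA per cell cannot be told apart.

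Directions rest on how the libraries are scaled, because the deposited values sum to 53899393 and 56855924 in spermatocytes and to 80600836 to 96511989 in spermatids. Rescaling to equal totals moved the median of all genes tested to -0.57, with 8645 genes higher and 14016 lower in spermatids, where the deposited scale gave 11512 and 10359. Quantile normalization moved it to -0.42, with 9339 higher and 13294 lower, and TMM factors to -0.04. Under either of the first 2 scalings the higher calls among the 10 genes were lost, and 7 (equal totals) or 8 (quantile) were lower. The decrease of Rsph1, Rsph3a, Rsph3b and Spag6 was called under all 4 scalings. The higher calls of Rsph9, Spag17 and Hydin held on the deposited scale and with TMM factors only.

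**Figure D1:**
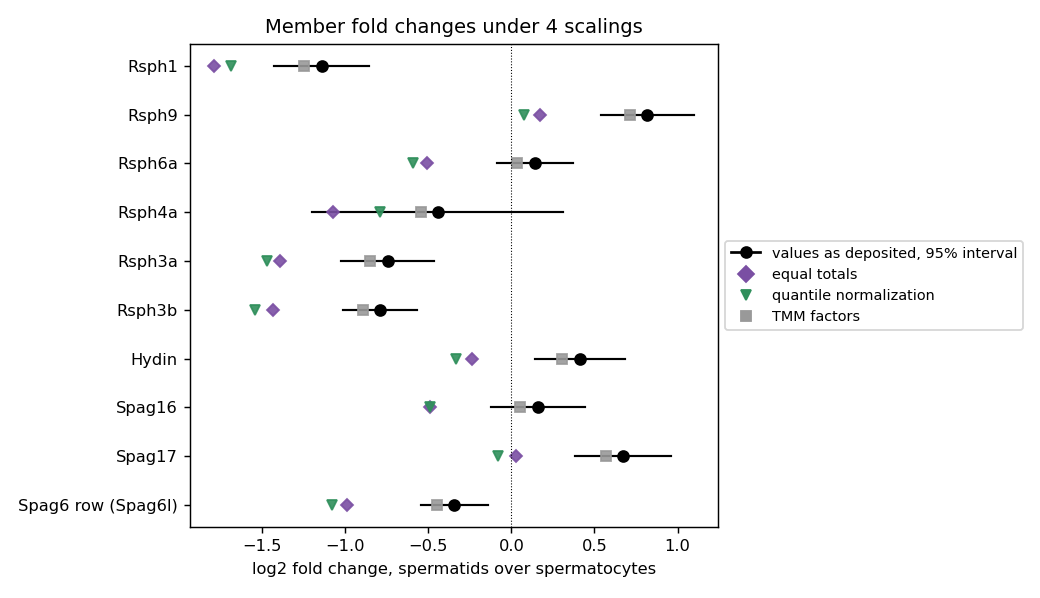
Log2 fold change of each gene, spermatids over spermatocytes (horizontal axis), on the deposited values (black circle, line for the 95% interval) and under equal totals, quantile normalization and TMM factors. Rsph1, Rsph3a, Rsph3b and the Spag6 row lie left of 0 under all 4 scalings, while Hydin lies right of 0 on the deposited and TMM scales and left of 0 on the other 2.

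The spoke head faces the central pair. Rsph1, a spoke head protein with MORN repeats, had normalised read counts of 138621 and 118824 in spermatocyte replicates 1 and 2, and of 64514, 57567 and 53111 in spermatid replicates 1, 2 and 3. Every spermatid sample was below both spermatocyte samples. The means were 128722 ± 13999 (SD, n = 2) and 58397 ± 5747 (SD, n = 3), and the level fell 2.20-fold (log2 fold change -1.14 ± 0.12 SE, limma adjusted p = 0.00013). The gene lies on the minus strand at chr17:31255019-31277356 (mm10).

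Rsph9, which binds the other head proteins, went the opposite way on the deposited scale. Its counts were 7907 and 7141 in spermatocytes against 11823, 14773 and 13336 in spermatids, and the groups did not overlap. The mean rose from 7524 ± 542 (SD, n = 2) to 13311 ± 1475 (SD, n = 3). The limma fit put the rise at 1.76-fold, a log2 fold change of 0.82 ± 0.12 SE (limma adjusted p = 0.00063). With equal totals the log2 fold change was 0.17 (limma adjusted p = 0.35). Rsph9 lies on the minus strand at chr17:46129271-46144202. The difference between Rsph9 and Rsph1 does not rest on the scaling: within each library the level of Rsph9 per kb was 4.37% to 4.50% of the summed level of the 10 genes in spermatocytes and 10.7% to 14.0% in spermatids, while that of Rsph1 was 60.7% to 62.1% and 42.5% to 47.3%. These shares were not tested.

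Rsph4a and Rsph6a encode alternative forms of a core head subunit, and Rsph4a is the form known from airway cilia. Rsph6a had counts of 23778 and 21791 in spermatocytes and 23521, 26833 and 25059 in spermatids. These overlapped, and the log2 fold change of 0.14 ± 0.10 SE (95% interval -0.09 to 0.37) did not pass the test (limma adjusted p = 0.21). Rsph4a had the lowest counts of the 10 genes, at 51.7 and 52.3 in spermatocytes and 29.5, 46.6 and 39.8 in spermatids. These rest on 48 and 78 reads in spermatocytes and on 19, 47 and 38 in spermatids. All spermatid values were below the spermatocyte values. The log2 fold change of -0.44 ± 0.31 SE (95% interval -1.20 to 0.31) did not pass either (limma adjusted p = 0.23). With equal totals both genes were called lower, Rsph6a at -0.51 and Rsph4a at -1.08 on the log2 scale (limma adjusted p = 0.0092 and 0.028).

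Of the reads of this pair, Rsph4a held 0.217% and 0.239% in spermatocytes and 0.125%, 0.173% and 0.159% in spermatids. Per kb of transcript Rsph6a was at 9679 normalised counts in spermatocytes and 10679 in spermatids, and Rsph4a at 14.2 and 10.6. The ratio of Rsph6a to Rsph4a differed between the groups by 0.58 on the log2 scale, which gave p = 0.2 in an exact two-sided permutation test, the smallest p that 2 against 3 samples allow. No word of 50 bases in the longest transcript of either gene occurs in any GENCODE vM21 transcript of the other. Reads of these longest transcripts thus cannot match the other gene at that length. Rsph6a lies on the plus strand at chr7:19054687-19074447 and Rsph4a on the plus strand at chr10:33905111-33916021.

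Rsph3a and Rsph3b are close copies that encode a protein of the spoke stalk, which joins the head to the doublet. Rsph3a had counts of 43768 and 38021 in spermatocytes and 27388, 22974 and 23004 in spermatids, and Rsph3b had 30877 and 27692 against 17648, 16049 and 17106. In both genes every spermatid sample was below every spermatocyte sample. Rsph3a fell by 0.74 ± 0.12 SE on the log2 scale (limma adjusted p = 0.001) and Rsph3b fell by 0.79 ± 0.09 SE (limma adjusted p = 0.00023). Both are on chromosome 17, Rsph3b on the minus strand at chr17:6904716-6948359 and Rsph3a on the plus strand at chr17:7945614-7979824, 997.3 kb apart.

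The copies share much of their sequence. Of the 2176 words of 50 bases in the longest Rsph3a transcript, 1611, 74.0%, also occur in the transcripts of Rsph3b. How the counting treated reads that match both is not given in the sources used here, so the split between the copies is uncertain. Their sum was 74646 and 65713 in spermatocytes and 45036, 39023 and 40109.9 in spermatids. These sums did not overlap, and the spermatid mean was 0.590 of the spermatocyte mean (0.377 with equal totals, a check of the sums added after seeing the data). Rsph3a made up 58.6% and 57.9% of the pair in spermatocytes and 60.8%, 58.9% and 57.4% in spermatids, with overlapping shares (exact two-sided permutation p = 0.8).

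**Figure D2:**
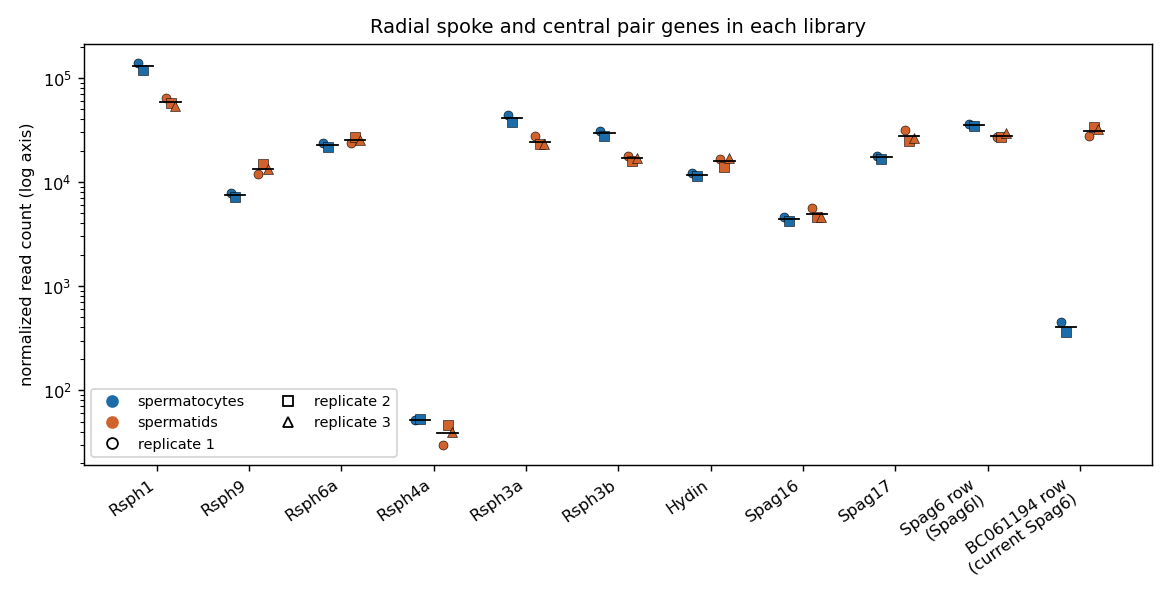
Normalised read count (vertical log axis) of each gene in each library, with spermatocytes in blue, spermatids in orange, 1 symbol per replicate and a line at each group mean. Rsph1 falls from 118824 and above in spermatocytes to 64514 and below in spermatids, Rsph4a is at 29.5 to 52.3, and the BC061194 row, shown for comparison, is at 363 to 448 in spermatocytes and at 27444 to 33416 in spermatids.

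Among the central pair genes, Spag17 and Hydin were higher in spermatids on the deposited scale. Spag17, a very large protein of a central pair projection, had counts of 17854 and 16673 in spermatocytes and 31504, 24737 and 26656 in spermatids. The groups did not overlap, and the limma fit put the rise at 1.59-fold (log2 fold change 0.67 ± 0.12 SE, limma adjusted p = 0.0019). Hydin, another giant projection protein, first known from a mouse mutant with hydrocephalus, had 12217 and 11367 against 16541, 13820 and 16827. These did not overlap either, and the mean rose 1.33-fold (log2 fold change 0.41 ± 0.11 SE, limma adjusted p = 0.013). With equal totals Spag17 was at 0.026 and Hydin at -0.24 on the log2 scale (limma adjusted p = 0.79 and 0.1). With quantile normalization Spag17 was at -0.081 (limma adjusted p = 0.41), and Hydin was called lower, at -0.33 (limma adjusted p = 0.03). The call of Hydin was lost when either spermatocyte sample was left out (limma adjusted p = 0.06 without replicate 1 and 0.11 without replicate 2).

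Spag17 lies on the plus strand at chr3:99885415-100143322, and its longest transcript has 49 exons and 7862 bases. Hydin lies on the plus strand at chr8:110266975-110610253, with 87 exons and 15783 bases. The row Gm21283 lies inside the Hydin locus and had counts of 32.3 and 20.1 in spermatocytes and 4019, 1278 and 1265 in spermatids. Whether its reads also entered the Hydin count was not tested. Of the 10 genes, 6 overlap another row of the table.

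Spag16, which encodes a WD repeat protein of the central apparatus, had 4617 and 4216 in spermatocytes and 5580, 4656 and 4605 in spermatids. The lowest spermatid value was below the higher spermatocyte value, and the log2 fold change of 0.16 ± 0.12 SE (95% interval -0.12 to 0.44) did not pass the test (limma adjusted p = 0.25). With equal totals it was -0.49 (limma adjusted p = 0.0019). Its locus on the plus strand, chr1:69826969-70725132, spans 898.2 kb.

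The Spag6 row, an armadillo repeat protein of the central apparatus, had 35925 and 34744 in spermatocytes and 27231, 26925 and 29505 in spermatids. All spermatid values were lower, and the level fell by 0.34 ± 0.09 SE on the log2 scale (limma adjusted p = 0.0088). Leaving out spermatocyte replicate 1 or 2 ended this call (limma adjusted p = 0.078 and 0.055), with the direction kept. The row lies on the minus strand at chr16:16753017-16829458, a locus that GENCODE vM21 and RefSeq name Spag6l.

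The gene that these annotations call Spag6 lies on the plus strand at chr2:18699022-18749748 and stands in the deposited table as BC061194. It is not among the 10, and is given because it shares the protein family and the name. Its counts were 448 and 363 in spermatocytes against 27444, 33416 and 32482 in spermatids, and the groups were far apart. The mean rose from 405 ± 60.3 (SD, n = 2) to 31114 ± 3213 (SD, n = 3), 76.7-fold, with a log2 fold change of 6.26 ± 0.13 SE (limma adjusted p = 3.7e-07). The spermatocyte level was 1.30% of the spermatid level. Round spermatid markers had a median of 1.40% by the same measure, with 1.06% the lowest, and the part of such carry-over in the spermatocyte value was not tested.

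The copy on chromosome 2 thus made up 1.23% and 1.03% of the pair in spermatocytes and 50.2%, 55.4% and 52.4% in spermatids. This share is free of the scaling, and the groups did not overlap (exact two-sided permutation p = 0.2, the smallest these samples allow). The sum of the pair was 35740 ± 895 (SD, n = 2) in spermatocytes and 59001 ± 3836 (SD, n = 3) in spermatids, 1.65 times as high on the deposited scale. With equal totals the sum was 1.06 times as high and the groups overlapped, at 47529.8 and 48392 in spermatocytes and 42089, 53618 and 57138 in spermatids. Of the 2367 words of 50 bases in the longest chromosome 16 transcript, only 18, 0.760%, occur in any transcript of the chromosome 2 gene.

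**Figure D3:**
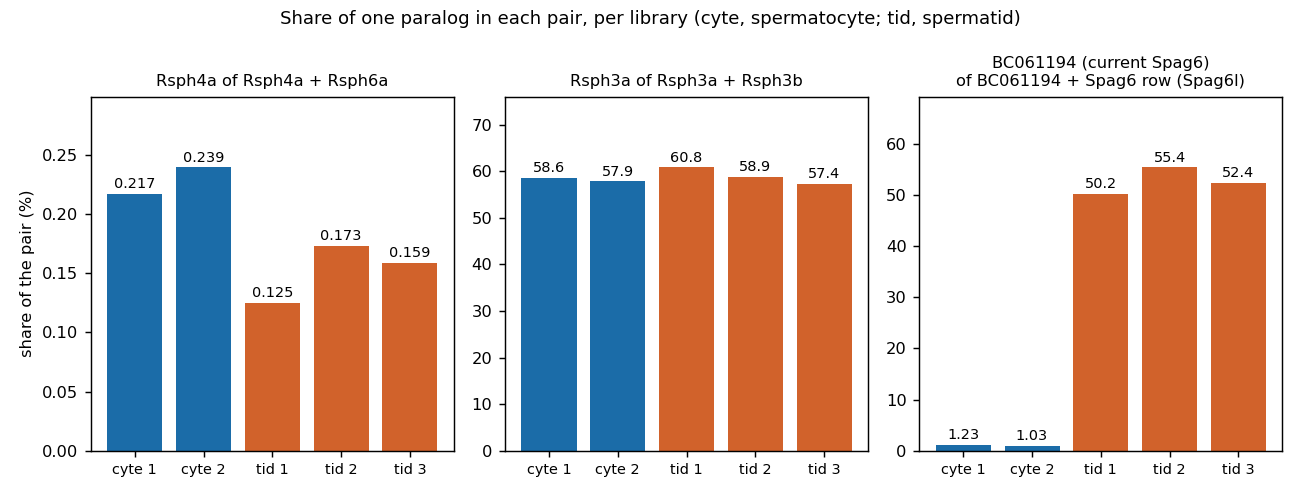
Share of one paralog in the summed counts of its pair (vertical axes, percent) in each spermatocyte library (blue) and spermatid library (orange), with 1 bar per library. Rsph4a stays under 0.24% of its pair, Rsph3a stays between 57.4% and 60.8%, and BC061194 moves from 1.03% and 1.23% to 50.2% to 55.4%.

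To set the genes against each other, counts were divided by the length of the longest protein-coding transcript in GENCODE vM21. In spermatocytes Rsph1 led with 108079 ± 11754 normalised counts per kb (SD, n = 2), 61.4% of the summed level of the 10 genes. Rsph3a followed with 18380 ± 1826 per kb, then Spag6 with 14625, Rsph3b with 13056, Rsph6a with 9679 and Rsph9 with 7789. Spag17, with 2196 per kb, Spag16, with 1241, Hydin, with 747, and Rsph4a, with 14.2, came last. With this length no neighbours in that order had overlapping sample values, with 2 samples each. With the union of all exons as length, a choice made after seeing the data, Spag6 took the fifth place in spermatocytes with 7750.4 per kb, after Rsph3b with 9404 and Rsph6a with 9128, which overlapped, and Hydin overlapped Spag16.

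In spermatids Rsph1 still led with 49032 ± 4825 per kb (SD, n = 3), 44.7% of the sum. Rsph9, the sixth by mean in spermatocytes, had the second highest mean with 13779 ± 1527 per kb, 12.6% of the sum against 4.43% in spermatocytes. Its samples, at 12239 to 15293 per kb, overlapped those of Rsph3a, at 10325 to 12309. Spag6 with 11543, Rsph3a with 10991 and Rsph6a with 10679 per kb overlapped in their sample values and cannot be ordered. Rsph3b, with 7550 per kb, Spag17 with 3515, Spag16 with 1390, Hydin with 997 and Rsph4a with 10.6 kept the order they had among themselves. With the union of all exons Rsph6a came second with 10071 per kb and Rsph9 in the third place with 8309, and Hydin came above Spag16, with overlapping values.

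**Figure D4:**
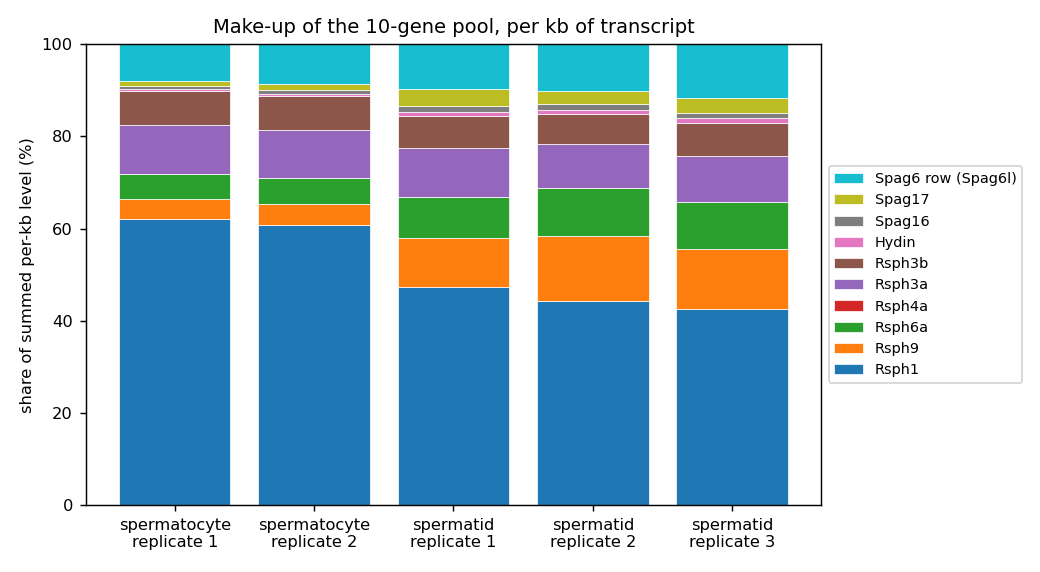
Share of each gene in the summed level of the 10 genes per kb of transcript (vertical axis, percent), 1 stacked bar per library. Rsph1 takes 60.7% and 62.1% in the spermatocyte libraries and 42.5% to 47.3% in the spermatid libraries, and Rsph9 takes 4.37% and 4.50% against 10.7% to 14.0%.

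Genes of motile cilia are known to carry X-boxes, the sites of RFX factors, in their promoters, and CREM, which binds the cyclic AMP response element, is known for turning on spermatid genes. RefSeq (GRCm38.p6) windows from 250 bases before to 50 bases after the start were at hand for 8 of the 10 genes, all but Rsph1 and Rsph4a. The X-box letters searched were GTNNCC and NGNAAC with 0 to 3 bases between them, on both strands. They occurred in 5 of the 8 windows and in 1726 of 32851 windows of all genes, 5.25%. All 5 matches are shown, and whether they bear on the levels of their genes was not tested. Capitals mark the X-box letters, and each run is written 5′ to 3′ on the gene's strand with up to 7 flanking bases. The letters read as searched in Spag16 and Spag17, and on the opposite strand, after reverse complement of the printed run, in Rsph3b, Spag6l and Hydin.
Rsph3b, chr17:6948328-6948354, minus strand: acctcggGTTGCTCGGCAACcgatggg
Spag6l (the Spag6 row), chr16:16829314-16829336, minus strand: gctgtcgGTTGCCCTGGAGACgc
Spag16, chr1:69826860-69826887, plus strand: gcaacgcGTTGCCGTAGTAACtgcggac
Spag17, chr3:99885201-99885229, plus strand: agactttGTTCCCAAGAGAAACagaggag
Hydin, chr8:110266949-110266976, plus strand: ctctgcgGTTGCTGTGGCAACagatggt

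Positions are counted from 0 at the first transcribed base in RefSeq. The match lies at 9 to 21 in Rsph3b and 34 to 47 in Spag6l, after the start. It lies at -103 to -90 in Spag16, -209 to -195 in Spag17 and -21 to -8 in Hydin, before the start. The Spag6 row reaches chr16:16829458, upstream of the RefSeq start of Spag6l. On the deposited scale Spag17 and Hydin were higher in spermatids, Rsph3b and Spag6l were lower, and Spag16 did not pass the test. The letters were not found in the windows of Rsph3a, Rsph6a and Rsph9, nor in that of the chromosome 2 copy of Spag6. The full cyclic AMP response element, TGACGTCA, occurred in 1 of the 8 windows, that of Spag6l, and in 588 of the 32851, 1.79%. It is shown as the only full element in the 8 windows, and the window of the chromosome 2 copy lacks it. Whether the element bears on the level of either gene was not tested. Capitals mark the element, at -9 to -2.
Spag6l (the Spag6 row), chr16:16829358-16829379, minus strand: ctggccgTGACGTCAcgacctt

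The other genes of the same structures were compared in the same fit, where 40.6% of all genes tested were higher in spermatids and 36.5% lower. Of 17 other radial spoke genes 15 were higher in spermatids, 1 was lower and 1 did not pass, with a median log2 fold change of 1.78. Ropn1l, a stalk protein of the ropporin family, had counts of 92755 and 85344 in spermatocytes and 133244, 145478 and 140149 in spermatids (log2 fold change 0.65 ± 0.09 SE, limma adjusted p = 0.00056). Its relative Ropn1 had a mean of 406 ± 78.0 (SD, n = 2) in spermatocytes and of 30140.0 ± 2194 (SD, n = 3) in spermatids (log2 fold change 6.22, limma adjusted p = 4e-07). Morn3, another MORN repeat gene, rose by 6.18 on the log2 scale (limma adjusted p = 4.9e-06), and Cfap206, at the base of the spoke, by 1.19 (limma adjusted p = 3.1e-05). The decrease was that of Cfap251, also at the spoke base, which fell by 0.47 (limma adjusted p = 0.0042) and was named after its value was seen. Without spermatid replicate 1, 2 genes of the list were lower.

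Of 14 other central apparatus genes 8 were higher, 5 lower and 1 did not pass, with a median of 0.55. Cfap47 (5.85), Stk36 (2.66), a kinase needed for central pair assembly, and Mycbpap (2.23) were higher in spermatids by these log2 fold changes (limma adjusted p = 3.5e-05, 8.6e-06 and 2e-06). Cfap70 fell by 0.58 on the log2 scale (limma adjusted p = 0.00084). Of 10 nexin-dynein regulatory complex genes, which encode the link between doublets, 6 were higher and 4 did not pass, with a median of 0.78. Without spermatid replicate 1, 2 of the 4 were lower. Fbxl13 rose by 5.43 and Ccdc65 by 1.23 on the log2 scale (limma adjusted p = 4e-07 and 2.5e-05).

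Of 14 axonemal dynein heavy chain genes, the motors of the beat, 8 were lower, 5 higher and 1 did not pass, with a median of -0.74. Dnah17 fell by 0.74 and Dnah7b by 1.34 on the log2 scale (limma adjusted p = 0.0025 and 0.00026). Dnah3 and Dnah5 rose by 5.90 and 5.20 (limma adjusted p = 4e-07 and 8e-07). Of 15 sperm tail accessory genes, for the outer dense fibres, fibrous sheath and tektins, 14 were higher and 1 did not pass, with a median of 3.21. Odf3, Cabyr, Akap4 and Odf2 rose by 6.44, 6.24, 6.18 and 1.63 on the log2 scale (limma adjusted p = 4e-07, 5e-07, 1.1e-05 and 0.00055). With equal totals the split of higher to lower was 14 to 2 for the radial spoke genes and 6 to 6 for the central apparatus. It was 2 to 3 for the nexin-dynein complex, 4 to 9 for the dynein chains and 13 to 1 for the tail accessory genes. Among all genes tested the split with equal totals was 8645 to 14016.

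**Figure D5:**
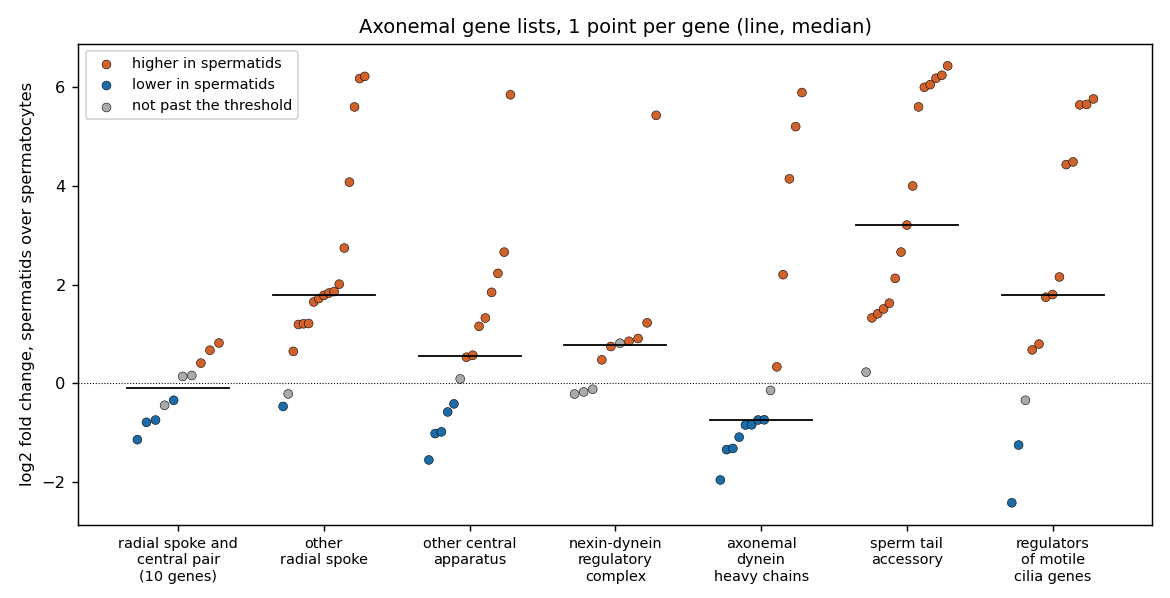
Log2 fold change, spermatids over spermatocytes (vertical axis), of each tested gene in 7 gene lists, with orange for higher and blue for lower in spermatids, grey for not past the threshold and a line at each median. The 10 spoke and central pair genes lie between -1.14 and 0.82 around a median of -0.10, and the medians of the other lists run from -0.74 for the dynein chains to 3.21 for the tail accessory genes.

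Of 14 genes for regulators of motile cilia or spermatid genes, 13 were tested: 10 were higher in spermatids, 2 were lower and 1 did not pass, with a median of 1.80 (8 higher and 3 lower with equal totals, and 1 lower without spermatocyte replicate 1). Rfx1, an X-box factor, had a mean of 548 ± 126 (SD, n = 2) in spermatocytes and of 29654 ± 3599 (SD, n = 3) in spermatids (log2 fold change 5.77, limma adjusted p = 6e-07). Gmnc, which starts the multiciliated program in epithelia, had counts of 4.31 and 0 in spermatocytes and 152, 115 and 87.0 in spermatids, and its spermatocyte value rests on 1 library. Tcfl5, a testis factor of the helix-loop-helix class, had 28122 ± 1843 (SD, n = 2) and 22364 ± 3845 (SD, n = 3) and did not pass (log2 fold change -0.34, limma adjusted p = 0.067). Mcidas, the gene of the list left out by the filter on low values, had counts of 4.31 and 2.68 in spermatocytes and 20.2, 7.93 and 4.19 in spermatids.

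Replicates of a group were close for most of the 10 genes. In spermatocytes 9 of the 10 were higher in replicate 1 than in replicate 2, all but Rsph4a. The median of the 10 was 0.13 on the log2 scale, beside 0.03 for all genes tested. Marker medians were -0.40 for Sertoli cells, -0.24 for spermatogonia and -0.05 for Leydig cells. They were 0.11 for spermatocytes, 0.38 for round and 0.46 for condensing spermatids, 0.12 for myoid to blood cells and 0.19 for duct epithelium. In spermatids, replicate 1 differed from the mean of the other 2 by -0.54 to 0.29 on the log2 scale. The gene with the most similar profile was sought for each of the 10 over the 5 samples, by the Euclidean distance of centred log2 values among 6340 genes with a mean of at least 1000. Hydin lay nearest to Dnaic2, a dynein intermediate chain gene (distance 0.032), Rsph9 to B9d1, a gene of the ciliary transition zone (0.060), and Spag17 to Lrrc49 (0.061). Rsph1 lay nearest to Brd7 (0.093), Rsph3a to Ddx18 (0.051), Rsph3b to Tnrc6c (0.039) and Spag6 to Napepld (0.050). Rsph6a lay nearest to Erp29 (0.035), Spag16 to Heca (0.039) and Rsph4a to Tmem203 (0.20), the most distant of the 10 nearest matches. The search used the same values as the fold changes, so a like fold change in the nearest gene is built in. An example is 0.39 for Dnaic2 and 0.41 for Hydin. Whether any of these pairs share their control was not tested.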

How the data were processed

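The deposited table holds a normalized signal for each gene in each library, made by the authors from read counts with DESeq size factors, per the file headers. The submitters' processing notes list DESeq, STAR 2.4.0, SAMtools, Picard, FastQC and the build mm10. The counting program, its strand setting and its handling of shared reads were not given in the sources used here, so overlapping genes cannot be told apart. Every value was a whole multiple of its column's smallest value (100% within 0.001), which gave back whole reads. The 95% intervals cover the spread between samples only.

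Genes with a mean of at least 10 were tested with limma 3.58.1 under R 4.3.3, using log2(value + 1), eBayes with a trend and Benjamini-Hochberg adjustment at 0.05 over all 28370. This scale understates the change of low genes. edgeR 4.0.16, DESeq2 1.42.0 on recovered reads, other pseudocounts, filters and scalings, and leaving out each sample were alternatives. The limma step was tested on simulated data. The 10 genes and the gene lists were chosen with earlier results of these data known. Named list genes are the 2 with the highest mean and the 2 with the largest change among those called, and the likeness search passed over rows without a single plain symbol. Replicates were numbered in accession order. Older symbols were matched through RefSeq, and Drc1, Dnah7c, Izumo1 and Insl3 were not matched.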

Additional observations from a re-analysis of the deposited data

How the results depend on the processing

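The 10 genes kept their direction and side of the threshold with pseudocounts of 0.5 and 10, no filter, TMM factors, edgeR and DESeq2; with a mean of at least 100, Rsph4a was not tested. With equal totals and quantile normalization, 0 were higher and 7 and 8 lower. Of the 28370 genes tested, 8645 were then higher and 14016 lower with equal totals, and 9339 and 13294 with quantile normalization. Rsph4a was at -1.08 and -0.79 on the log2 scale, Rsph6a at -0.51 and -0.59, and Rsph9 at 0.17 and 0.079. Spag16 was at -0.49 and -0.49, Spag17 at 0.026 and -0.081, and Hydin at -0.24 and -0.33. Of these, Rsph4a, Rsph6a and Spag16 were called lower under both scalings, and Hydin with quantile normalization only. Without a trend, Spag6 (-0.34) and Hydin (0.41) had a limma adjusted p of 0.064; the cause was not tested. All genes lower were 17263 with no filter and 6029 at a mean of at least 100, where more and fewer genes were tested. Other radial spoke genes lower were 2 with equal totals, quantile and TMM; nexin-dynein genes higher were 2 and lower 3 with equal totals and quantile, and lower 2 with TMM; tail accessory genes lower were 1 with equal totals and quantile; regulators lower were 1 at a mean of at least 100.

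Leaving out 1 sample gave 2 to 3 members higher and 3 to 4 lower, 1 to 2 other radial spoke genes lower, 0 to 2 nexin-dynein genes lower (2 without spermatid replicate 1) and 1 to 3 regulators lower (1 without spermatocyte replicate 1). The log2 fold changes ran from -0.38 to -0.32 for Spag6 and from 0.36 to 0.50 for Hydin. No paired analysis was possible because the labels give the groups no shared replicate numbers. Rsph4a rested on 19 to 78 reads per library.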
